A study of Rattus norvegicus with 6 samples.

Results

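The S100 calcium-binding proteins are described here in pancreatic islets, the clusters of hormone-producing cells of the pancreas, from young and adult rats. The 10 genes were chosen by symbol, with earlier results of these data known: S100a1, S100a4, S100a6, S100a8, S100a9, S100a10, S100a11, S100a13, S100a16 and S100b. All 10 had a row among the 17055 gene rows. The P10 group consisted of islets from 10-day-old Sprague-Dawley rats, whose sex the labels do not give. The adult group consisted of islets from 3-month-old Sprague-Dawley males. Each group held 3 libraries of polyadenylated RNA labelled as biological replicates of control animals, numbered 1, 3 and 4 at P10 and 1, 2 and 3 in adults. The labels do not say whether a replicate pooled several animals, so p-values measure only the spread between these libraries.

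S100 proteins are small calcium sensors of the EF-hand type that mostly work as dimers. Binding of calcium exposes a surface that docks on partner proteins, among them annexins, cytoskeletal proteins and enzymes. Some members are also released and act on receptors such as Ager, the receptor for advanced glycation end products, and Tlr4, a receptor of innate immunity. Several members mark particular cells of other tissues: S100b is typical of glia and Schwann cells, S100a8 and S100a9 of neutrophils and monocytes, and S100a4 of fibroblasts and leukocytes.

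In the RefSeq annotation of the GRCr8 assembly, used for gene order and promoter sequence only, 9 of the members lie on chromosome 2 and S100b lies on chromosome 20. S100a4 and S100a6 neighbour each other across S100a5, and S100a11 and S100a10 are adjacent further along. RefSeq promoter sequence was at hand for 7 of the 10 members, and S100a1, S100a8 and S100a10 were not among them. The bases before the start of 4 members that fell in adult islets are shown to compare what precedes genes that moved together. They run 5′ to 3′ on the gene's strand, and capitals mark matches on either strand to 3 common promoter motifs. The first, the TATA box, was searched as TATAAA. The motif bound by nuclear factor Y was searched as CCAAT, and the GC box bound by Sp family factors as GGGCGG. The S100b stretch holds the 172 bases that lie outside the span of its RefSeq gene, and the window of S100a6 lay inside its own gene and is not shown.
S100a4 (chr2:178388279-178388528, plus strand): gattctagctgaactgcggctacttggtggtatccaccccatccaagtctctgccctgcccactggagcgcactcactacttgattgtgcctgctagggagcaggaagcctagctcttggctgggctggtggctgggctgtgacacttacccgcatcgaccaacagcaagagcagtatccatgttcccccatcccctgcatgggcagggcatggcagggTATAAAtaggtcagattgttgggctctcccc
S100a11 (chr2:181874882-181875131, plus strand): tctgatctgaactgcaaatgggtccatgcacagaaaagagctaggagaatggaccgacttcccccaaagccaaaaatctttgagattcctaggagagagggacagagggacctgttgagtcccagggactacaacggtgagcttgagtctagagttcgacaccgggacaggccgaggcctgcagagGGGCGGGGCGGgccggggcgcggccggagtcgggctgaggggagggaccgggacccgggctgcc
S100a16 (chr2:178313736-178313985, plus strand): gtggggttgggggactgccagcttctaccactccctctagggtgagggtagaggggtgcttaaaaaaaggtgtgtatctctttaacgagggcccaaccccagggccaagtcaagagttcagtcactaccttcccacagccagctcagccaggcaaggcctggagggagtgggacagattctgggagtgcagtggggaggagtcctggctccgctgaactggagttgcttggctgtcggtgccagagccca
S100b (chr20:12381160-12381331, minus strand): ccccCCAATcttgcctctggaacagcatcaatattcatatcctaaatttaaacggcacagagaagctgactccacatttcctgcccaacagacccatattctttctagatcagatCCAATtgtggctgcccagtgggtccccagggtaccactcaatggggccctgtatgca
S100a4 had a TATA box between 31 and 26 bases before its start, a motif found in 12.9% of 33469 promoter windows of 250 bases. S100a9, which had too few reads to be tested, also had a TATA box, between 42 and 37 bases before its start. S100a11 had a pair of overlapping GC boxes between 64 and 54 bases before its start, and S100a6 and S100a13 had 1 GC box each, against 30.5% of all windows. S100b had 3 matches to CCAAT in its 250 bases, the third of them at 38 to 34 bases before its start and outside the printed stretch. S100a13 had 1 such match, and 34% of all windows held at least 1. The S100a16 window held none of these motifs, and no member's window held the AP-1 site TGANTCA, present in 6.34% of windows. No motif searched was therefore common to the 6 windows of members that fell.

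Levels are given as normalised CPM, read counts of a gene per 1000000 reads assigned to genes after correction for library composition. Between 3307415 and 6477825 reads were assigned to genes per library. A floor of 3 reads corresponded to between 0.407 and 1.10 normalised CPM (counting error only). Between 28.3% and 33.6% of gene reads at P10 came from the insulin genes, and between 46.6% and 52.3% in adults. Changes were tested with edgeR's quasi-likelihood test over 10124 genes and called at a Benjamini-Hochberg false discovery rate (FDR) under 0.05. All changes are relative to the bulk of genes: the median log2 fold change of all tested genes was -0.029, and -0.52 when libraries were scaled by their totals alone, under which the members that fell fell further.

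Adult islets had lower levels of most S100 mRNAs than P10 islets. Of the 10 members 7 were lower in adults (S100a4, S100a6, S100a10, S100a11, S100a13, S100a16 and S100b), none was higher, and S100a1, S100a8 and S100a9 had too few reads to be tested. Over all tested genes 13.8% were called lower and 12.5% higher. Shares over all genes are given for scale only, since the members were chosen with earlier results known. S100b passed the filter on low counts only through its P10 libraries, so it had to differ to be tested, whereas the other 6 passed in the libraries of both ages. The folds ranged from 3.17 for S100a13 to 21.9 for S100b, and S100a6, S100a11 and S100b were at least 5-fold lower, as were 3.21% of tested genes. In each of the 7 the lowest P10 library lay above the highest adult library, which held for 22.3% of tested genes. In bulk islets, fewer cells of a type and less RNA per cell cannot be told apart.

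**Figure D1:**
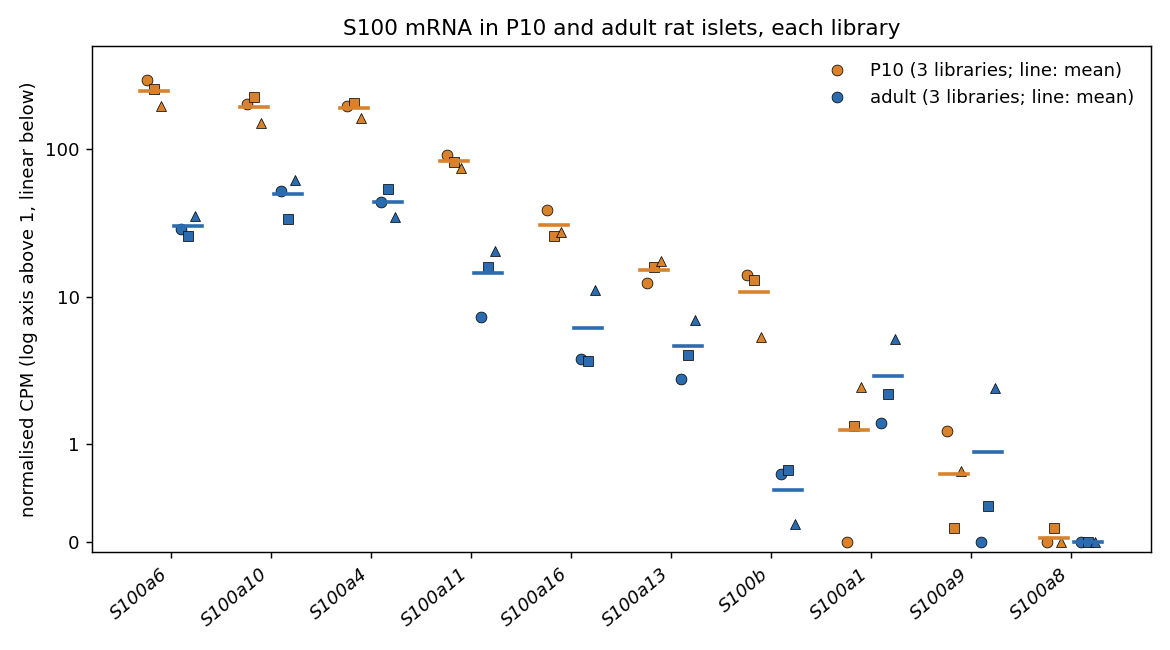
Normalised CPM of the 10 S100 members (log axis above 1, linear below) in the 3 P10 libraries (orange) and 3 adult libraries (blue), with horizontal lines at the group means. The groups are separate for S100a6, S100a10, S100a4, S100a11, S100a16, S100a13 and S100b and overlap for S100a1, S100a9 and S100a8.

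All members together accounted for 850, 824 and 638 normalised CPM in P10 replicates 1, 3 and 4, and for 140.4, 140.01 and 178 in adult replicates 1, 2 and 3. As a share of gene reads this was 0.0739% to 0.104% at P10 and 0.0110% to 0.0154% in adults. S100a6, S100a10, S100a4 and S100a11 supplied most of these reads at both ages. The share of S100a6 among S100 reads was 30.8% to 34.5% in P10 libraries and 18.3% to 20.4% in adult libraries, without overlap. That of S100a4 was 24.6% ± 1.27 at P10 and 29.7% ± 9.56 in adults (SD, n = 3), and that of S100a10 was 24.9% ± 2.11 and 32.0% ± 6.98 (SD, n = 3), both with overlapping groups. These shares are of reads and not corrected for transcript length, so they do not rank the members by molecules.

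**Figure D2:**
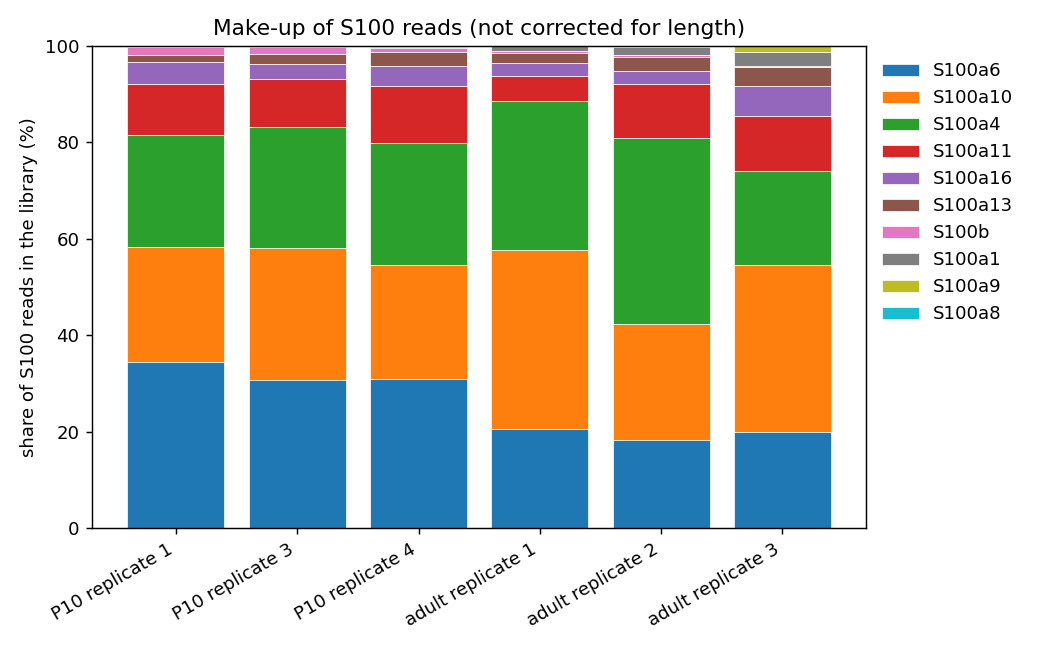
Share of all S100 reads (percent, not corrected for transcript length) taken by each member in each of the 6 libraries. The S100a6 segment spans 30.8% to 34.5% in the P10 libraries and 18.3% to 20.4% in the adult libraries.

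S100a10 and S100a11 are the members best known for binding annexins. S100a10, or p11, has lost the ability to bind calcium and forms a complex with Anxa2, annexin A2, at the plasma membrane. It stood at 202, 225 and 150.3 CPM in P10 replicates 1, 3 and 4 and at 52.2, 33.7 and 61.9 CPM in adult replicates 1, 2 and 3. Every P10 library lay above all adult libraries, and adult replicate 2 was the lowest of the 6. S100a10 fell 3.87-fold (log2 fold change -1.95 ± 0.20 SE, edgeR FDR = 4.55e-06).

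S100a11, or calgizzarin, binds Anxa1, annexin A1, and takes part in growth control and membrane repair. It was at 91.1, 82.2 and 74.5 CPM in the P10 libraries and at 7.26, 15.8 and 20.4 CPM in the adult libraries. The P10 values lay close together, and the adult values were spread, with adult replicate 1 lowest. S100a11 fell 5.53-fold (log2 fold change -2.47 ± 0.26 SE, edgeR FDR = 5.35e-06). RefSeq lists 5 pseudogenes and 2 further S100a11-like genes, and 1 pseudogene of S100a10, so reads that matched several copies may be missing from both counts. Over all genes, alignments that were not unique were 23.4% to 27.7% of counts at P10 and 15.1% to 17.8% in adults. The effect on S100a10 and S100a11 was not tested.

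The annexin partners moved in the same direction. Anxa2 had 452, 484 and 344 CPM at P10 and 64.7, 71.8 and 79.9 CPM in adults and fell 5.90-fold (edgeR FDR = 8.76e-09). Anxa1 had 90.7, 91.4 and 78.4 CPM at P10 and 4.84, 2.93 and 9.36 CPM in adults. It fell 13.9-fold (edgeR FDR = 1.10e-07), or 22.0-fold without adult replicate 3. Because both genes of a pair fell, their ratio within a library, which does not depend on the scaling, shows which fell more.

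The reads of S100a10 per read of Anxa2 were 0.448, 0.465 and 0.437 at P10, almost constant. In adults they were 0.807, 0.469 and 0.775, with adult replicate 2 just above the highest P10 library. The groups did not overlap, a 1.48-fold rise of the ratio (log2 difference 0.56). S100a11 per read of Anxa1 went from 1.00, 0.899 and 0.950 at P10 to 1.5, 5.38 and 2.18 in adults, a 2.73-fold difference. The adult values rest on as few as 8 Anxa1 reads. Exact two-sided permutation of 3 against 3 libraries cannot go below p = 0.1, the value of both ratios, and after adjustment over the 10 ratios tested both had p = 0.143.

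S100a6 and S100a4 lie near each other on the chromosome and bind different targets. S100a6, or calcyclin, was named for its rise in cycling cells and binds Cacybp, an adaptor of a ubiquitin ligase. It was the most read member at P10, at 293, 253 and 197 CPM, and stood at 28.7, 25.7 and 35.3 CPM in adults. The lowest P10 library was still several times above the highest adult library. S100a6 fell 8.20-fold (log2 fold change -3.04 ± 0.18 SE, edgeR FDR = 8.60e-09).

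Cacybp did not follow: it was at 16.4, 24.7 and 29.6 CPM at P10 and 20.1, 22.4 and 22.03 CPM in adults (log2 fold change -0.12 ± 0.26 SE, edgeR FDR = 0.771). Its sign turned without P10 replicate 4 (log2 fold change 0.074). The reads of S100a6 per Cacybp read were 17.9, 10.3 and 6.66 at P10 and 1.43, 1.15 and 1.60 in adults. The ratio was 7.74-fold lower in adults without overlap (exact permutation p = 0.1, adjusted p = 0.143).

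S100a4, or metastasin, binds non-muscle myosin and is linked to cell motility. It had 197, 207 and 163 CPM at P10 and 43.6, 53.9 and 34.7 CPM in adults. The groups were well apart, with little spread within each. S100a4 fell 4.33-fold (log2 fold change -2.12 ± 0.17 SE, edgeR FDR = 3.15e-07). Its myosin partner Myh9 is listed at 0 in every library, so the planned ratio could not be formed.

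S100a13 and S100a16 were less abundant in reads. S100a13 takes part in the release of the growth factor Fgf1 together with the synaptotagmin Syt1. It was at 12.3, 15.9 and 17.5 CPM at P10 and 2.77, 4.03 and 6.98 CPM in adults. The groups were apart, with adult replicate 3 highest among the adults. S100a13 fell 3.17-fold (log2 fold change -1.66 ± 0.41 SE, edgeR FDR = 0.00684), on 8, 11 and 38 adult reads.

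Fgf1 was low throughout, with 1.08, 2.67 and 1.70 CPM at P10 and 4.15, 8.06 and 3.49 CPM in adults. It did not pass (log2 fold change 1.49 ± 0.68 SE, edgeR FDR = 0.119). S100a13 per Fgf1 read went from 11.4, 5.94 and 10.3 to 0.667, 0.5 and 2. This was a 10.1-fold lower ratio in adults (exact permutation p = 0.1, adjusted p = 0.143), and 15.3-fold without adult replicate 3. Between 7 and 22 Fgf1 reads per library stand behind it. Syt1 had at most 24 reads in a library and was not tested.

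S100a16, a broadly expressed member, was at 38.9, 25.9 and 27.4 CPM at P10 and 3.80, 3.67 and 11.02 CPM in adults. Adult replicate 3 was nearly 3 times the other adults and still below every P10 library. S100a16 fell 4.63-fold (log2 fold change -2.21 ± 0.37 SE, edgeR FDR = 4.01e-04), or 8.17-fold without adult replicate 3.

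S100b had the largest fold of the members. It was at 14.1, 12.9 and 5.34 CPM at P10, that is 104, 87 and 22 reads, and at 0.692, 0.733 and 0.184 CPM in adults, that is 2, 2 and 1 reads. All adult libraries lay under the floor of 3 reads, and P10 replicate 4 was lowest of its group. The fitted fold was 21.9 (log2 fold change -4.46 ± 0.70 SE, edgeR FDR = 2.30e-04). From the pooled reads, 213 against 5, the ratio of normalised counts was 25.9 with an exact 95% counting interval of 10.9 to 80.5. The interval covers counting error only, not the spread between libraries. The gene spans of S100b and Dip2a overlap in the GRCr8 annotation, and the libraries do not keep the strand. Whether the parts counted in the rn5 build, which the authors used, also overlap was not examined.

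Markers of Schwann cells and glia moved with S100b in part. Of the 12 markers listed 11 had a row and 5 could be tested. Of these 2 fell (Erbb3 and Ngfr) and none rose, beside 13.8% lower and 12.5% higher over all tested genes. The summed level of the 11 ran from 71.6 to 109 CPM at P10 and from 34.5 to 48.4 CPM in adults. Sox10, a defining transcription factor of the lineage, was at 10.7 ± 1.65 and 5.27 ± 3.24 CPM (SD, n = 3; edgeR FDR = 0.116). Fabp7, a glial fatty acid binding protein, was listed at 0 in every library. The part of these cells in the S100b result was not tested.

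S100a1, S100a8 and S100a9 were at or near the floor. S100a1, which regulates calcium release in heart muscle, had 0, 9 and 10 reads in P10 replicates 1, 3 and 4 and 4, 6 and 28 reads in adult replicates 1, 2 and 3. That is 0, 1.34 and 2.43 CPM against 1.38, 2.20 and 5.14 CPM, and the groups overlapped. Without the filter on low counts its log2 fold change was 1.29 ± 1.08 (SE) with an edgeR FDR of 0.453. Pooled, 19 reads stood against 38, a P10 over adult ratio of normalised counts of 0.304 with an exact 95% counting interval of 0.165 to 0.540. That interval covers counting error only and not the spread between libraries, under which no difference was detectable at this depth. The absence of S100a1 reads from P10 replicate 1 allows up to 0.407 CPM there.

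S100a8 and S100a9 form calprotectin, a secreted complex of neutrophils and monocytes. S100a8 had 1 read in all 6 libraries, in P10 replicate 3. S100a9 had 9, 1 and 3 reads at P10 and 0, 1 and 13 in adults, so 13 of 14 adult reads came from adult replicate 3. Neither differed detectably without the filter (edgeR FDR = 0.713 and 0.877). Of 13 neutrophil markers 2 could be tested and neither passed, and Ltf, Mmp8 and Ctsg were listed at 0 in every library. Their summed level was 60.9 to 65.4 CPM at P10 and 32.9 to 157 CPM in adults. Most of it was Lcn2, which is not restricted to neutrophils, at 53.3 ± 3.64 and 92.4 ± 64.1 CPM (SD, n = 3).

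Ager and Tlr4, the receptors of released S100 proteins named above, were low. Ager was at 6.92, 13.2 and 5.58 CPM at P10 and 2.77, 3.67 and 4.41 CPM in adults and did not pass (log2 fold change -1.23 ± 0.51 SE, edgeR FDR = 0.0864). Scaling by library totals alone would call it lower (log2 fold change -1.74, edgeR FDR = 0.0133). Tlr4 had between 0 and 14 reads per library and was not tested. Ahnak, a giant scaffold protein that binds S100a10 with Anxa2, fell 4.34-fold, from 92.9 ± 7.96 to 21.4 ± 3.84 CPM (SD, n = 3; edgeR FDR = 5.96e-07).

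Among 40 partners and receptors 39 had a row and 33 could be tested, of which 7 fell, 6 rose and 20 did not pass. Over all tested genes 13.8% fell and 12.5% rose. The median log2 fold change of the 33 was -0.074, beside -0.029 for all tested genes. The calls depended on scaling, with 1 riser and 17 fallers under library totals alone. Besides Anxa1, Anxa2 and Ahnak, the fallers included Anxa5, annexin A5, which fell 2.06-fold (edgeR FDR = 1.33e-04). Plat, tissue plasminogen activator, rose 1.98-fold (edgeR FDR = 1.25e-04), and Ctsb, the lysosomal protease cathepsin B, rose 1.65-fold (edgeR FDR = 1.75e-04). The Ctsb call was lost under library totals alone. Anxa11 and Anxa6, named after their values were seen, were not called lower: Anxa11 rose 1.47-fold (edgeR FDR = 0.00811), whereas Anxa6, with 127 ± 17.4 CPM in P10 and 124 ± 15.2 CPM in adult libraries (SD, n = 3), did not pass. Under library totals alone the Anxa11 call was lost (log2 fold change 0.066, edgeR FDR = 0.779) and Anxa6 was called lower (-0.51, edgeR FDR = 0.0186).

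**Figure D3:**
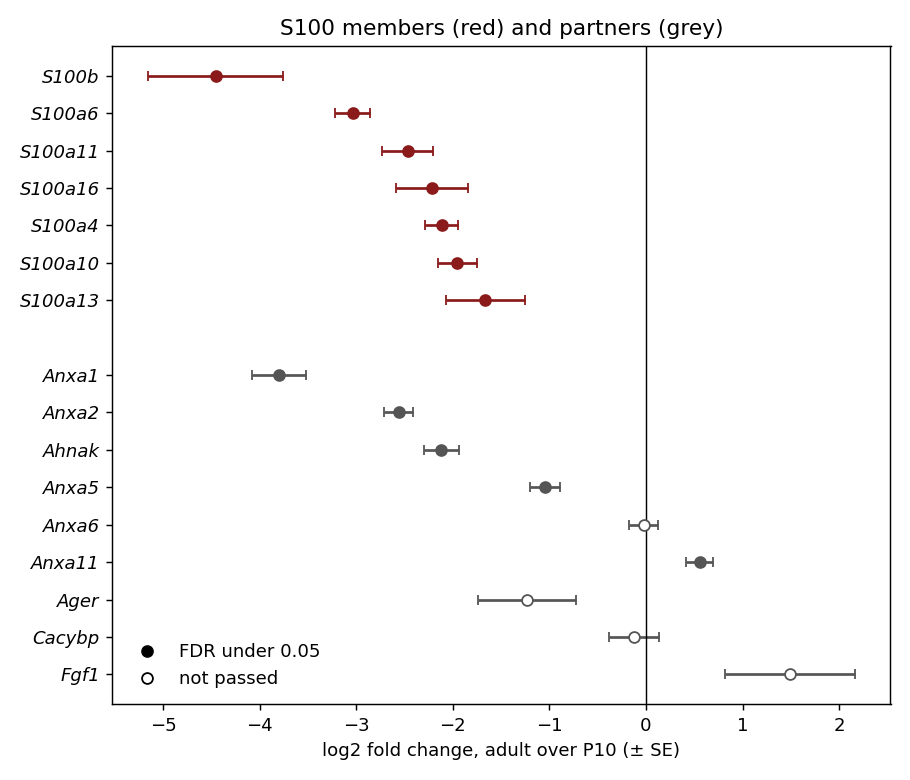
Log2 fold change, adult over P10, with its standard error from edgeR, for the 7 tested S100 members (red) and 9 partners or receptors (grey). Filled points passed an FDR of 0.05, and all 7 members lie left of 0 while the partners lie on both sides, from Anxa1 at -3.80 to Fgf1 at 1.49.

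Other calcium-binding proteins of the EF-hand type went both ways. Of 47 listed 45 had a row and 33 could be tested, of which 7 fell, 3 rose and 23 did not pass, with a median log2 fold change of -0.17. Over all 10124 tested genes 1394 fell, 1265 rose and 7465 did not pass. Under library totals alone 17 fell and 1 rose, and without the filter or with DESeq2 5 rose. Sparc, a matrix glycoprotein, fell 6.54-fold (edgeR FDR = 6.24e-09) and Calu, calumenin of the secretory pathway, fell 2.74-fold (edgeR FDR = 1.66e-06). Nucb2, which yields the peptide nesfatin, rose 1.93-fold (edgeR FDR = 6.50e-05).

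Markers of fibroblasts, smooth muscle and ducts were mostly lower in the same adult libraries, and those of leukocytes and acinar cells overlapped between the ages in their summed level. Of 15 fibroblast markers 14 had a row and 13 could be tested, of which 12 fell and none rose. Their summed level ran from 3046 to 3903 CPM at P10 and from 334 to 473 CPM in adults, with Col1a2 listed at 0 throughout. The 8 smooth muscle and pericyte markers summed to 271 to 333 CPM at P10 and 42.5 to 55.0 CPM in adults, with 6 of 7 tested lower. The duct markers summed to 1904 to 2058 and 437 to 661 CPM, with 7 of 8 tested lower. The endothelial markers summed to 236 to 373 and 138 to 196 CPM, with 4 of 12 tested lower. The macrophage and leukocyte markers overlapped between ages, at 128 to 226 and 101 to 168 CPM, with 3 of 14 tested lower. The acinar markers summed to 3022 to 4388 CPM at P10 and 1133 to 4474 CPM in adults. Of 11 tested, 4 were lower and 3 higher. The endocrine markers went the other way, at 263852 to 331000 CPM at P10 and 567929 to 704027 CPM in adults. Of 16 tested, 11 were higher and 1 lower. Beside these counts, 13.8% of all tested genes were called lower and 12.5% higher.

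The levels of 6 members were also set against the summed fibroblast markers of the same library, and no test compared the members with each other. The reads of S100a4 per read of the summed fibroblast genes were 0.0645, 0.0530 and 0.0457 at P10 and 0.122, 0.114 and 0.104 in adults. S100a4 was thus 2.10-fold higher in adults on this scale, with no overlap. S100a10 was 2.29-fold and S100a13 2.57-fold higher by the same measure, also without overlap. For all 3 the p of the exact permutation test (two-sided) was 0.1, the lowest possible, and 0.143 after adjustment. With Col1a1, the most abundant marker, left out of the sum, the log2 differences shrank to 0.60 for S100a4, 0.72 for S100a10 and 0.89 for S100a13. The S100a10 groups then overlapped (exact permutation p = 0.3).

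S100a6 was at 0.0962, 0.0649 and 0.0554 reads per fibroblast read at P10 and 0.0804, 0.0542 and 0.106 in adults. These groups overlapped (log2 difference 0.14, exact permutation p = 0.8, adjusted p = 0.8), and the sign turned without P10 replicate 4, without adult replicate 3 or without Col1a1 in the sum. S100a11 (log2 difference 0.55, exact permutation p = 0.4, adjusted p = 0.5) and S100a16 (0.69, exact permutation p = 0.5, adjusted p = 0.556) also overlapped. The S100a16 difference was 0.067 without adult replicate 3. The markers in the sum changed unequally: the log2 fold change was -3.904 for Col1a1, -1.355 for Pdgfrb and -0.163 for Thy1 (not called). A ratio to this sum therefore cannot separate fewer fibroblasts from less marker RNA per fibroblast. The part of fibroblasts in the falls of the S100 members was not tested.

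**Figure D4:**
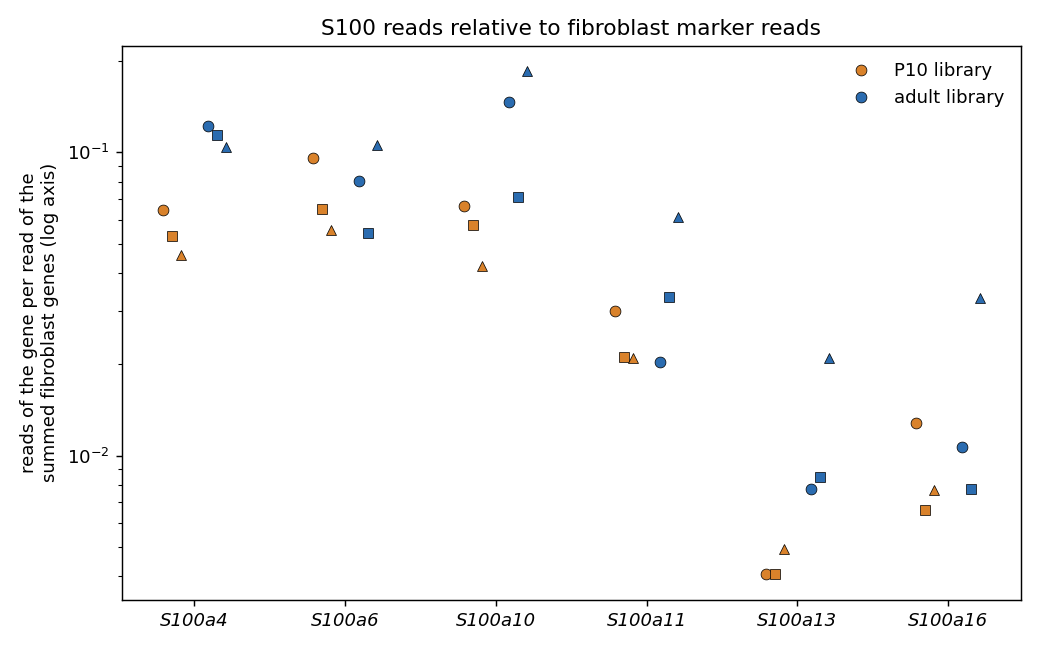
Reads of 6 S100 members per read of the summed fibroblast markers (log axis), each point a library, P10 in orange and adult in blue. The adult points lie above the P10 points for S100a4, S100a10 and S100a13 and overlap them for S100a6, S100a11 and S100a16.

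The genes whose pattern over the 6 libraries was most like that of each member were found by the root mean square difference of centred log2 CPM, among 5150 other genes of at least 20 CPM on average. For S100a4 this was Rcn3, an EF-hand protein of the endoplasmic reticulum (difference 0.09), which fell 4.93-fold. For S100a10 it was Capg, an actin filament capping protein (0.11), and for S100a13 it was Cyba, a subunit of the phagocyte oxidase (0.13). Prrx1, a mesenchymal transcription factor, was closest to S100a16 (0.17), and Dbn1, the actin-binding drebrin, to S100a6 (0.22). Fcgrt, the neonatal Fc receptor, was closest to S100a11 (0.24), and Tagln, a smooth muscle gene, to S100b (0.37). All 7 of these genes were lower in adults, as the measure over both ages requires.

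Of the other S100 genes, 6 had a row. S100a7a, S100g, S100vp and S100z were listed at 0 in every library. S100a3 had 0, 2 and 8 reads at P10 and 6, 4 and 0 in adults and was not tested. S100a5, which lies between S100a4 and S100a6 in the gene order, had 2.36 ± 0.541 CPM in P10 and 3.61 ± 2.07 CPM in adult libraries (SD, n = 3). It did not pass (log2 fold change 0.59 ± 0.68 SE, edgeR FDR = 0.568).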

How the data were processed

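Each library has its own deposited file of raw counts, the number of reads per gene symbol. The authors used Bowtie2, TopHat2 (version 2.0.10) and HTSeq with the rn5 build, per the submitters' processing notes, which also name DESeq and edgeR without a role. Per the labels' protocols, the libraries were not strand-specific. Counter rows (ambiguous reads 0.319% to 0.474% and alignments that were not unique 15.1% to 27.7% of all counts) were kept out of library sizes and tests. A deposited table of all libraries was not used. In 3810 gene rows, Col1a2 and Myh9 among them, every library was at 0. Such a row need not mean that the RNA was absent.

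Counts were tested in R 4.3.3 with edgeR 4.0.16. Genes passed filterByExpr (minimum count 10, total 15), which left 10124. TMM factors scaled the libraries, and the quasi-likelihood model had age as its sole term over all 6. FDRs are Benjamini-Hochberg values over all tested genes, called under 0.05. The standard error of a log2 fold change is its size over the square root of F. The biological coefficient of variation was 23.7%. The script was tested on simulated counts. Ratios within a library were compared by exact two-sided permutation.

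The members and gene lists were chosen with earlier results of these data known. Named genes were all members, other S100 genes with a row, 9 stated partners, 3 examples per list by smallest p, and the nearest pattern of each called member. Log2 patterns used a pseudocount of 0.5 CPM. The alternatives changed the scaling (RLE factors, library totals alone, or TMM without hormone and acinar genes), the tool (DESeq2 1.42.0), the filter (none, or 5 CPM in 3 libraries), added a replicate block, or left out each library in turn. No transcript lengths were used, so levels were not ranked between genes. Libraries of a group differed by more than sampling noise (chi-square per degree of freedom 6.56 to 17.7).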

Additional observations from a re-analysis of the deposited data

How the results depend on the processing

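The falls of S100a4, S100a6, S100a10, S100a11, S100a16 and S100b kept their direction and passed in all 13 alternatives. S100a13 kept its direction in all 13 and missed the threshold in 1, the replicate block (log2 fold change -1.60, edgeR FDR = 0.0875). The number of members called lower was within 1.5 times the main count under every alternative, and no alternative called a member higher. Library totals alone gave 343 genes higher and 3612 lower over all tested genes, 1 and 17 among the partners and receptors, and 1 and 17 among the other EF-hand proteins. Of the EF-hand proteins 5 were higher without the filter and 5 with DESeq2. The replicate block, with numbers 1 and 3 shared by both groups, gave 679 genes higher and 729 lower, and a fitted S100b fold of 33.4. P10 replicate 4 and adult replicate 2 each filled a block alone, so under the block they did not inform the age difference. Same-numbered libraries did not deviate together (correlations -0.024 and -0.0048). With 3 libraries per group this cannot decide whether they were paired, and the labels do not say. Cacybp, not called, reversed under the block (0.054) and without P10 replicate 4 (0.074), and ran from -0.32 to 0.074 when single libraries were left out. Anxa6, also not called, reversed under the block (0.045) and ran from -0.12 to 0.10 without single libraries. The Anxa11 call was lost under the block (edgeR FDR = 0.0804). The log2 ratio of S100a6 to the fibroblast sum reversed without P10 replicate 4 (-0.033), without adult replicate 3 (-0.088) and without Col1a1 (-0.33), over a range of -0.088 to 0.39 without single libraries. Depth limits S100a1, S100a8, S100a9 and the adult values of S100b.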
